A study of Ovis aries with 36 samples.

Results

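Perirenal fat, the fat depot around the kidneys, was compared between sheep fetuses whose dams ate dried corn distillers grains (DG) and fetuses whose dams ate haylage (HY). The comparison used 8 of the 36 RNA-seq libraries of the study, chosen by the tissue and maternal diet in their labels. Each diet had 4 pools, 2 of female fetuses (F1 and F2) and 2 of male fetuses (M1 and M2). Distillers grains are what remains of corn after ethanol fermentation, a feed rich in fibre, protein and fat, and were offered in limited amounts. By the study's daily intakes, DG dams nevertheless took in less fibre and crude protein than HY dams, and more crude fat. The HY diet, which the labels call hay, was alfalfa haylage fed freely, and intakes were set so that the diets gave similar energy. The remaining 4 perirenal pools came from dams fed corn (CN), a starch diet, and are given as a further level beside some of the results. All dams were Polypay ewes bred to 1 ram and fed from mid gestation until the fetuses were taken in late gestation. The study drew on 26 fetuses of 15 dams, so a pool holds RNA of 1 or a few fetuses. By the study's description, each of the 8 DG and HY pools shares a dam with another pool of its diet. The p-values therefore measure the spread between pools rather than between unrelated animals.

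Perirenal fat is the main fat depot of the fetal lamb and is largely of the brown type before birth. Brown adipocytes burn fat for heat through UCP1, an uncoupling protein of the inner mitochondrial membrane, and after birth the depot turns into white fat. Fat cells mature from fibroblast-like precursors while the collagens, fibulins and laminins around them are laid down and remodelled. Their lipid comes from fatty acids taken up from blood and from lipid made in the cell, and sterols are made by a dedicated enzyme chain that responds to the sterol content of the cell.

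UCP1 lay between 430.1 and 1173 CPM (counts scaled to a common library size) in the DG and HY pools, and ADIPOQ, which encodes the fat hormone adiponectin, between 2761 and 10610 CPM. The kidney genes UMOD, AQP2 and SLC34A1 and the adrenal genes CYP11B1, NR5A1 and MRAP had no count in any of the 12 perirenal pools. STAR, which carries cholesterol into mitochondria, made up nearly all of the adrenal cortex sum, which was 37.96 to 45.88 CPM in DG and 29.05 to 34.95 in HY. Skeletal muscle markers were present too. The sum of 15 of them, led by MYLPF, MYL1 and TNNT3, ran from 25.61 to 364.8 CPM in DG, from 42.04 to 231.7 in HY and up to 749.6 in CN, and the part of muscle RNA in the results was not tested. Total counts ran from 7802700 to 15913813 in DG and from 8577157 to 12542222 in HY. The ratio of the mean totals, DG to HY, was 1.051 (exact permutation test over 8 pools, two-sided p = 0.771, where the smallest possible p is 0.029). On the first 2 principal components of log2 CPM, which held 17.25% and 14.89% of the variance, the pools furthest out were DG and HY pools. DG pool F2 and HY pool F1 stood at 56.06 and -39.18 on the first axis, and DG pool F1 and HY pool F2 stood at -45.26 and 48.62 on the second.

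Between DG and HY, 0 of 18246 loci passed FDR ≤0.05 in the quasi-likelihood test of edgeR (0%), and 0 passed FDR ≤0.20 (0%). The smallest FDR was 0.208. At an unadjusted p under 0.05 the same test listed 1800 loci, of which 1255 had the higher mean in DG (6.88% of those tested) and 545 the lower mean (2.99%). The other tools differed in their counts. At FDR ≤0.05 the likelihood-ratio test of edgeR called 41 loci, 39 of them higher in DG, and DESeq2 called 101, 93 of them higher in DG, while limma voom with sample weights called 0. The study itself, with Cuffdiff, reported genes at FDR ≤0.05 between DG and HY in perirenal fat and in the other tissues. For perirenal fat it called only the DG and CN difference marked, and found none between DG and HY at a stricter FDR. Separation of the pools was counted without a model. All 4 DG pools lay above all 4 HY pools at 582 loci (3.19%) and below them at 396 loci (2.17%). All 4 DG pools lay above all 8 HY and CN pools at 321 loci (1.76%) and below them at 86 (0.471%). Since no gene passed the main threshold, the genes below are described by their levels, with the 10 smallest p in each direction among loci with 1 gene symbol and a mean of at least 50 counts. Their p chose them, so their values are a description.

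Of the 10 genes with the higher mean in DG, LAMA5 (chr13:54200421-54252654 on Oar_v3.1, the build of the files) encodes a laminin chain of the basement membrane and had the smallest p. Its levels in pools F1, F2, M1 and M2 were 26.1, 30.4, 34.9 and 36.3 CPM in DG and 16.2, 15.7, 11.5 and 16.2 CPM in HY. The lowest DG pool was well above the highest HY pool, and the means were 31.9 ± 4.63 and 14.9 ± 2.27 CPM (SD, n = 4 pools each). The log2 fold change, DG minus HY, was 1.10 (SE 0.188, edgeR FDR 0.208), and the CN pools averaged 13.6 ± 3.55 CPM, close to HY. FLNA (chrX:77260855-77284398), the actin crosslinker filamin A, was the most abundant of the 10. It stood at 398, 505, 398 and 321 CPM in the DG pools and at 245, 173, 252 and 194 CPM in the HY pools. No pool of one diet entered the range of the other, and the log2 fold change was 0.91 (SE 0.172, edgeR FDR 0.208).

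PDLIM7, an actin-associated PDZ and LIM domain protein, averaged 90.6 ± 14.4 CPM in DG and 52.7 ± 9.59 in HY (SD, n = 4). DBN1, the actin-binding protein drebrin, averaged 73.6 ± 5.14 and 49.0 ± 4.13 CPM. ARHGEF17, a guanine nucleotide exchange factor, averaged 45.1 ± 4.21 and 28.6 ± 3.71 CPM. PDLIM7 and DBN1 are listed in the files under the same interval (chr5:36284841-36482758), which spans several genes, so reads could be shared between neighbours there. PLXNB2, a plexin receptor for semaphorins, averaged 75.4 ± 8.16 CPM in DG and 46.3 ± 6.22 in HY. The kinase gene DMPK had 37.4 to 45.2 CPM in DG and 26.4 to 29.9 in HY.

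The other 3 of the 10 have separate roles. ISYNA1 (chr5:4504332-4523905), the enzyme that makes inositol phosphate from glucose 6-phosphate, had the largest difference of the group. Its DG pools held 14.8, 19.3, 10.8 and 14.1 CPM and its HY pools 6.48, 5.34, 7.27 and 6.96 CPM, a log2 fold change of 1.18 (SE 0.219, edgeR FDR 0.208). MBD3 (chr5:41350398-41362091), a subunit of the NuRD chromatin complex, held 47.7, 64.6, 63.8 and 74.0 CPM in DG and 30.2, 31.6, 33.9 and 42.8 in HY. CHID1, a chitinase-like secreted protein, averaged 12.1 ± 2.23 and 5.67 ± 1.35 CPM. In these 10 genes all 4 DG pools also lay above all 4 CN pools. The fold changes of HY against CN ran only from -0.19 to 0.23 on the log2 scale, and those of DG against CN from 0.53 to 1.32. The comparisons share the DG pools and are not independent. For DG against CN, 21 of all loci passed FDR ≤0.05 (0.115%), among them LAMA5, PDLIM7, FLNA and CHID1. Leaving out any 1 pool kept the 10 log2 fold changes positive, between 0.54 and 1.30.

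The 10 genes with the lower mean in DG had larger FDR values, 0.270 to 0.323, and more overlap. In 7 of them all 4 DG pools lay below all 4 HY pools. TMEM154 (chr17:4832840-4884580), a transmembrane protein gene, had the smallest p, with 6.23, 3.41, 6.60 and 5.36 CPM in DG and 7.77, 11.1, 11.5 and 10.9 in HY. FCGR3A, an Fc receptor of natural killer cells and macrophages, had 9.59, 2.52, 5.78 and 5.53 CPM in DG and 16.6, 11.8, 13.3 and 10.3 in HY. The groups did not overlap in either gene, but for FCGR3A the highest DG pool lay just under the lowest HY pool. DAPK2, a calcium-regulated kinase, averaged 42.7 ± 3.85 CPM in DG and 77.9 ± 25.9 in HY. The HY pools of DAPK2 were widely spread, from 51.9 to 112 CPM.

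AQP3 (chr2:37506643-37509857), a channel for water and glycerol, had 11.2, 7.20, 10.2 and 16.8 CPM in DG, 68.5, 15.0, 16.2 and 38.7 in HY and 7.32 to 11.1 in CN. HY pools F1 and M2 made most of that difference, and HY pools F2 and M1 lay below the highest DG pool. The log2 fold change of AQP3 was -1.60 for DG minus HY (SE 0.433, edgeR FDR 0.311) and 1.87 for HY minus CN (edgeR FDR 1.0), and 0 of the 10 genes passed FDR ≤0.05 for HY minus CN. DTL, which brings proteins to a ubiquitin ligase in the cell cycle, averaged 37.1 ± 6.98 CPM in DG, 60.0 ± 14.8 in HY and 39.98 ± 4.24 in CN. PPM1K, the phosphatase that switches on the branched-chain ketoacid dehydrogenase, averaged 67.7 ± 7.85, 101 ± 25.1 and 73.0 ± 7.14 CPM in the same order. ST7L had the smallest difference but close replicates, with 30.2 to 34.8 CPM in DG, 40.3 to 46.9 in HY and 42.4 to 49.7 in CN. The remaining genes were LRP11, a member of the LDL receptor family, ACSL3, which joins fatty acids to coenzyme A, and the zinc finger gene ZNF624, with log2 fold changes of -0.68, -0.54 and -0.61. Leaving out any 1 pool kept the 10 log2 fold changes negative.

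**Figure D1:**
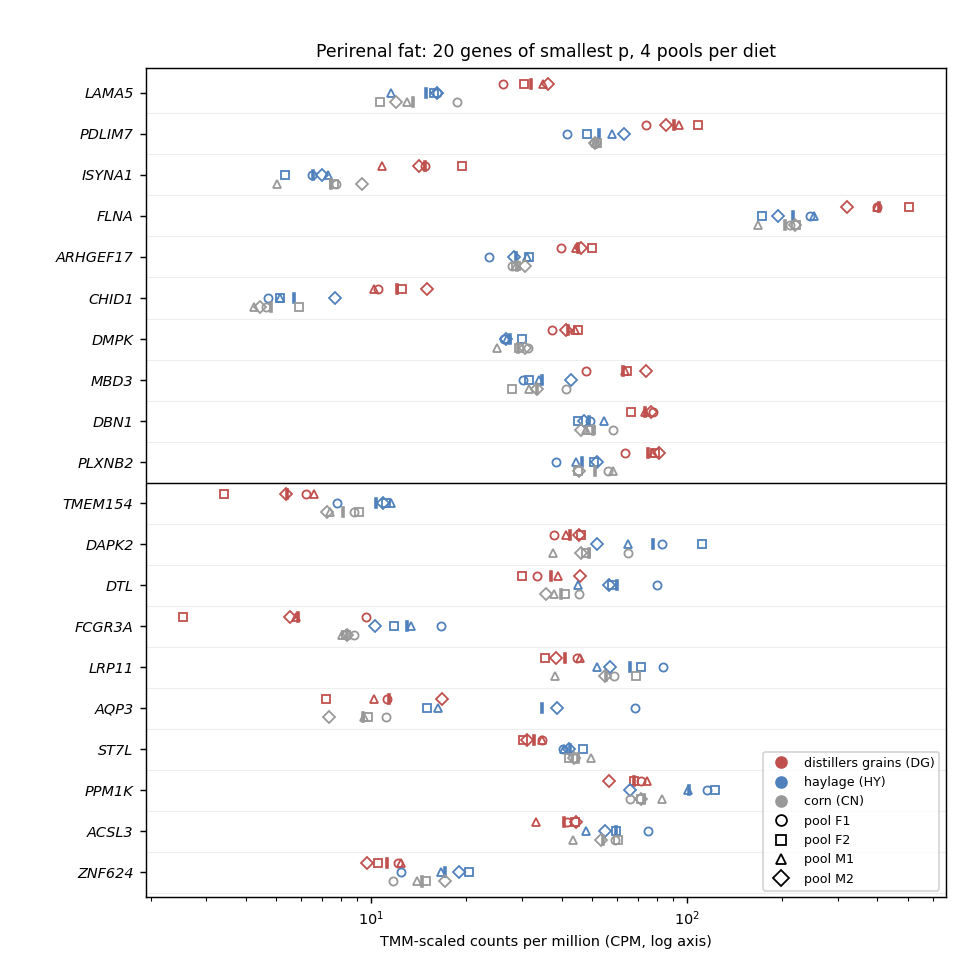
Levels of the 20 genes in CPM on a log axis, 1 symbol per pool (shape) and diet (colour), with a short bar at the mean of 4 pools. In the upper 10 genes the DG pools lie to the right of the HY and CN pools, and in the lower 10 they lie to the left of most HY pools, with overlap in DTL, AQP3 and PPM1K.

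Genes of the extracellular matrix stood mostly on the DG side. Of 27 genes for elastic fibres and associated matrix, 26 had the higher mean in DG, as did 47.7% of all loci tested. In this list 12 had an unadjusted p under 0.05 and the higher mean in DG (6.88% of all loci), 0 the lower mean, and 0 passed FDR ≤0.05. The median log2 fold change was 0.52, against -0.02 over all loci tested. FBLN2, the matrix protein fibulin 2, held 18.5, 37.1, 22.8 and 14.3 CPM in the DG pools and 6.29, 5.61, 12.2 and 11.8 in the HY pools. LTBP4, which anchors latent TGF-beta to elastic fibres, held 88.6, 112, 94.3 and 85.9 CPM in DG and 75.8, 38.6, 59.9 and 68.9 in HY. In both genes, and in EFEMP2, the DG pools lay above all HY pools. EMILIN1, an elastic fibre glycoprotein, held 4.82, 4.92, 2.58 and 1.19 CPM in DG and 0.555, 0.736, 1.88 and 0.708 in HY, so DG pool M2 lay within the HY range. The largest log2 fold change of the list, named after its value was seen, was 2.0 for ELN, the gene of elastin (SE 0.640, edgeR FDR 0.373). The count of 12 was 19 without HY pool M1, 8 without DG pool F1, HY pool F1, HY pool F2 or HY pool M2, and 7 with limma voom.

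The collagen genes showed a similar direction with more overlap. Of 21 collagen genes, 19 had the higher mean in DG, and 6 of these had an unadjusted p under 0.05, against 47.7% and 6.88% of all loci. The median log2 fold change was 0.49, yet the DG pools lay above all HY pools for 0 of the 21. COL6A1, a chain of the microfibrillar collagen VI, held 184, 235, 142 and 122 CPM in DG and 91.7, 101, 136 and 112 in HY. COL6A2 averaged 37.5 ± 12.8 CPM in DG and 22.6 ± 4.46 in HY, and COL18A1, a basement membrane collagen, 87.2 ± 7.39 and 64.4 ± 13.5. Female DG pools F1 and F2 were the highest of the 8 for COL6A1. The 6 genes became 11 without DG pool M2 or without HY pool M1, 3 without DG pool F2 or without HY pool F2, and 2 with limma voom.

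Markers of stromal cells varied between the same pools. The summed level of 9 preadipocyte and fibroblast markers, which are led by COL3A1, COL1A1 and DCN and so overlap the collagen list, was 8015, 5255, 4823 and 2330 CPM in DG pools F1, F2, M1 and M2. In the HY pools it was 2787, 2048, 6620 and 3690 CPM. The order of the pools within each diet was thus wide, with DG pool M2 below HY pool F1 and HY pool M1 above DG pools F2 and M1. The sum of 8 smooth muscle and pericyte markers ran from 720.4 to 1447 CPM in DG and from 692.4 to 982.5 in HY, and that of 8 Schwann cell markers from 82.06 to 292.5 and from 74.56 to 139.8. DG pools F1 and F2 were the highest of the 8 for the Schwann cell sum. In bulk tissue, more cells of a type and more RNA per cell cannot be told apart, and the part of stromal cells in the matrix differences was not tested.

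**Figure D2:**
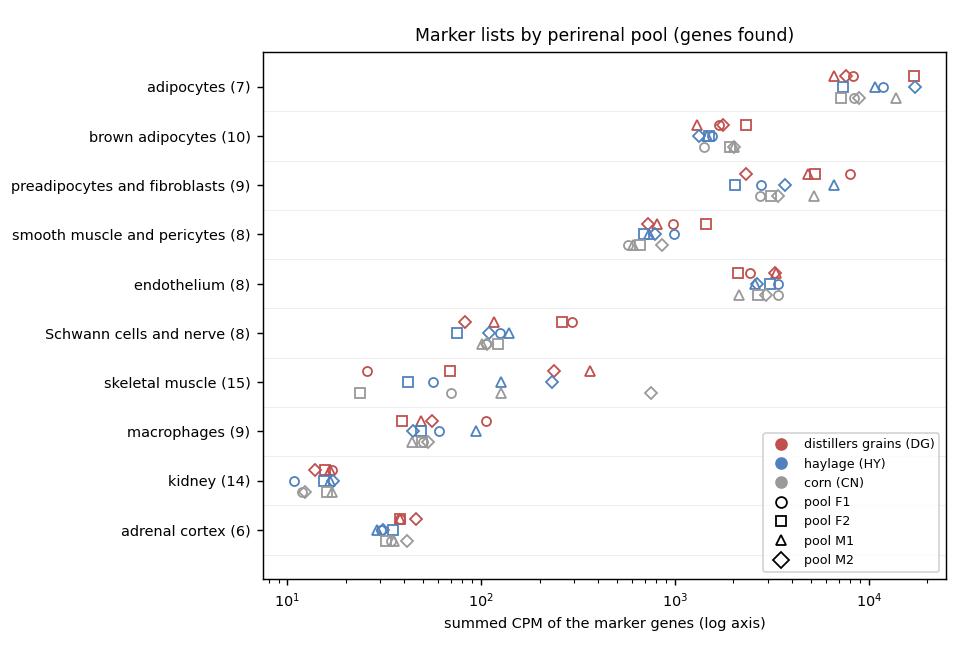
Summed CPM of the markers of 10 cell types on a log axis, 1 symbol per pool (shape) and diet (colour), with the number of marker genes found in parentheses. Adipocyte markers are high in all 12 pools, fibroblast markers spread from 2330 to 8015 CPM within DG, and kidney and adrenal sums stay under 50 CPM.

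Other lists tied to cell adhesion and signalling gave fewer such genes. Of 21 genes for TGF-beta signals and integrins, 5 had an unadjusted p under 0.05 and the higher mean in DG, against 6.88% of all loci. The list median was only 0.03. ITGB4, an integrin chain that binds laminin, held 49.2, 51.5, 48.3 and 24.7 CPM in DG and 14.4, 16.8, 28.8 and 21.8 in HY, so that DG pool M2 alone lay among the HY pools. ITGB5 had very close DG pools, 65.2 to 67.2 CPM, all above the HY pools at 44.7 to 54.2 CPM. INHBA, the activin A subunit, averaged 26.8 ± 11.3 CPM in DG and 15.7 ± 1.81 in HY. Without DG pool F2 the 5 genes became 3.

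Of 16 Wnt antagonists and coreceptors, 14 had the higher mean in DG, with a median of 0.49, but only LRP1 and LRP4 had an unadjusted p under 0.05. Over all loci 47.7% had the higher mean in DG and 6.88% had such a p in that direction. LRP1, an endocytic receptor for lipoproteins and proteases, held 119, 139, 89.5 and 102 CPM in DG and 78.1, 57.7, 75.9 and 101 in HY. The secreted frizzled-related proteins, which bind Wnt ligands outside the cell, had wide ranges. SFRP1 held 40.2, 25.0, 17.7 and 1.87 CPM in DG and 8.97, 4.14, 14.8 and 7.20 in HY. DG pool M2 had the lowest SFRP1 of all 8 pools while DG pool F1 had the highest. The list had 1 to 6 genes at an unadjusted p under 0.05 when 1 pool was left out, 1 without DG pool M1, 4 without DG pool F1 and 6 without DG pool M2 or HY pool M1.

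Genes for cholesterol synthesis stood on the other side, lower in DG. Of 19 tested, 17 had the lower mean in DG, 8 of them with an unadjusted p under 0.05, against 52.3% and 2.99% of all loci, and the median log2 fold change was -0.41. No member had such a p with the higher mean in DG, and 0 passed FDR ≤0.05. CYP51A1 (chr4:9359282-9376877), the lanosterol demethylase, held 127, 131, 72.5 and 91.3 CPM in DG and 203, 154, 177 and 153 in HY. HSD17B7, which reduces a sterol ketone, held 17.8, 21.0, 18.2 and 21.2 CPM in DG and 25.7, 24.6, 28.0 and 25.5 in HY. MSMO1, the methylsterol oxidase, held 108, 142, 87.0 and 117 CPM in DG and 201, 153, 145 and 145 in HY. In these 3 genes all 4 DG pools lay below all 4 HY pools. The log2 fold changes were -0.70 (SE 0.211, edgeR FDR 0.323), -0.41 (SE 0.133, FDR 0.346) and -0.51 (SE 0.190, FDR 0.414). The CN pools, at 119 to 205 CPM for CYP51A1 and 130 to 220 CPM for MSMO1, spanned parts of both ranges. Others among the 8 were SQLE, STARD4, EBP and HMGCS1, with log2 fold changes between -0.59 and -0.42. The number of genes depended on single pools, with 2 rather than 8 without DG pool M1 or HY pool F1 and 4 without DG pool M2 or in the fit of the 8 DG and HY pools alone. With limma voom it was 12. With 1 pool left out, the median stayed between -0.46 and -0.24.

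**Figure D3:**
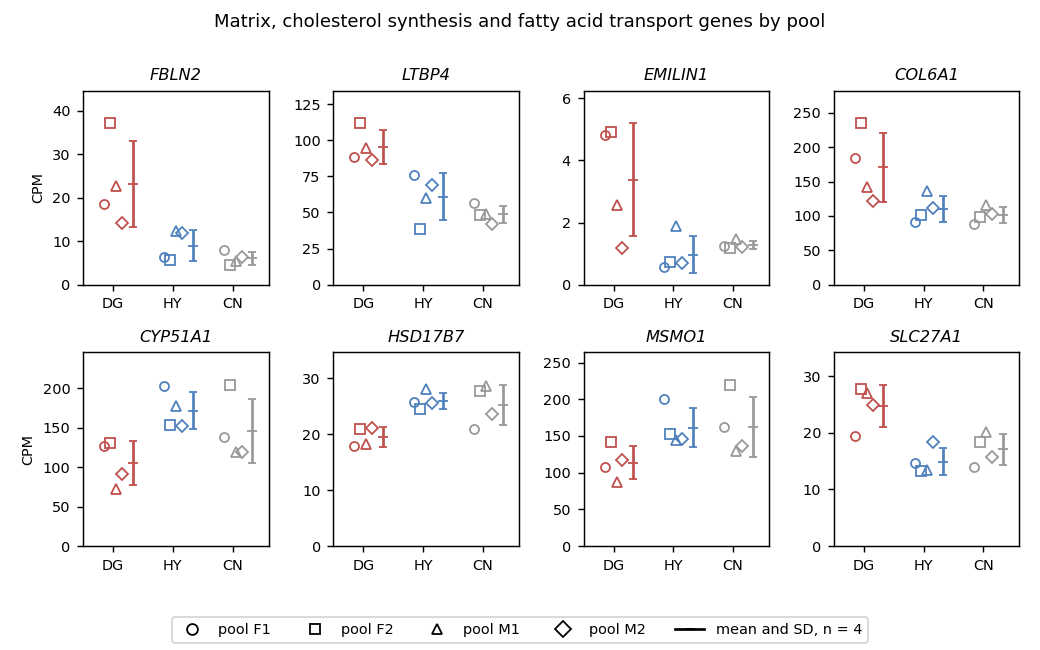
Levels in CPM of 4 matrix genes, 3 cholesterol synthesis genes and the fatty acid transporter gene SLC27A1, 1 symbol per pool, with the mean and SD of 4 pools beside them. DG pools lie above the HY pools for FBLN2, LTBP4 and SLC27A1 and below them for CYP51A1, HSD17B7 and MSMO1, while 1 DG pool overlaps HY for EMILIN1 and COL6A1.

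Fatty acid handling was mixed within 1 list. Of 13 genes for fatty acid uptake and binding, 3 had an unadjusted p under 0.05 with the higher mean in DG and 2 with the lower mean, and the pools of the 2 diets did not overlap in any of these 5. Over all loci these p were reached by 6.88% and 2.99%, and pools without overlap by 3.19% with DG above and 2.17% with DG below. SLC27A1, a fatty acid transporter of the plasma membrane, held 19.4, 27.6, 27.03 and 24.9 CPM in DG and 14.7, 13.2, 13.4 and 18.3 in HY (log2 fold change 0.73, SE 0.167, edgeR FDR 0.255). SLC27A4 averaged 12.7 ± 3.14 CPM in DG and 7.70 ± 0.694 in HY, and LMF1, a chaperone of lipases, had a log2 fold change of 0.69. On the other side, FABP4, the abundant fatty acid binding protein of mature adipocytes, held 2668, 2964, 2751 and 2558 CPM in DG and 5907, 3419, 3470 and 4358 in HY (log2 fold change -0.66, SE 0.202, edgeR FDR 0.329). The CN pools had 1537 to 2157 CPM of FABP4, below all DG and HY pools. ADIPOQ, another gene of mature adipocytes, held 3667, 10610, 2761 and 3531 CPM in DG and 3733, 2807, 4455 and 9087 in HY, and did not separate the diets. The summed adipocyte markers ran from 6592 to 17050 CPM in DG and from 7353 to 17220 in HY.

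Lipid storage and oxidation lists were near the background. DGAT1, which makes triglyceride, held 380, 706, 595 and 568 CPM in DG and 266, 454, 323 and 370 in HY. It was the only 1 of 16 lipid droplet and lipolysis genes with an unadjusted p under 0.05, and the pools overlapped. Of 18 fatty acid synthesis genes only ACACB had such a p (log2 fold change 0.46), and of 19 fatty acid oxidation genes only ACAA1, the peroxisomal thiolase (0.52). For the 22 citrate cycle genes the count was 0, and the median was close to 0. Of 37 oxidative phosphorylation subunits, ATP5D and NDUFV1 had an unadjusted p under 0.05, with log2 fold changes of 0.60 and 0.69, and the list median was -0.09. Such a p with the higher mean in DG was reached by 6.88% of all loci.

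Brown fat genes had a median of 0.21 over 17 genes, against -0.02 over all loci. Of the 17, 4 had an unadjusted p under 0.05 with the higher mean in DG, against 6.88% of all loci. PRDM16, a transcription regulator of brown fat identity, held 10.99, 12.2, 9.39 and 7.65 CPM in DG and 6.57, 6.44, 8.49 and 5.31 in HY. PPARGC1B, a coactivator of mitochondrial genes, averaged 14.4 ± 3.24 CPM in DG and 9.37 ± 1.48 in HY, and LHX8, a brown fat homeobox gene, 2.12 ± 0.434 and 1.148 ± 0.652. UCP1 held 754.8, 1173, 481.2 and 733.7 CPM in DG and 625.7, 642.2, 430.1 and 463.0 in HY (log2 fold change 0.52, SE 0.233, edgeR FDR 0.489). DG pool F2 was far above the others, and the diets overlapped in each of the 4 genes. The count of 4 was 2 without DG pool F1, DG pool M2 or HY pool M1, 1 without DG pool F2, and 0 without HY pool M2. The CN pools had 674.8 to 848.8 CPM of UCP1.

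Among 20 adipogenic transcription regulators, 4 had an unadjusted p under 0.05 and the higher mean in DG and 1, KLF4, the lower mean. The shares of all loci were 6.88% and 2.99%, and the list median was 0.15. RXRA, the partner of PPAR gamma, held only 1.34 to 2.04 CPM in DG and 0.354 to 0.980 in HY, without overlap. CEBPB, an early adipogenic factor, held 2.26, 7.32, 2.06 and 3.74 CPM in DG and 1.02, 0.460, 1.31 and 2.24 in HY. KLF5 averaged 3.52 ± 3.05 CPM in DG and 0.967 ± 0.578 in HY, with DG pool F1 at 7.999. LMNA, the nuclear lamin A/C gene, held 44.4 to 60.0 CPM in DG and 24.3 to 43.8 in HY. RXRA, CEBPB and KLF5 had few counts, and their fold changes are correspondingly uncertain.

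Of 30 chromatin regulators, 4 had an unadjusted p under 0.05 and the higher mean in DG, and the median of the list was 0.00, against 6.88% and a median of -0.02 over all loci. They included MBD3, HDAC5 and H1FX. HDAC5, a class II histone deacetylase, held 79.5, 82.2, 88.6 and 99.0 CPM in DG and 72.6, 60.8, 71.6 and 57.7 in HY. H1FX, a linker histone, held 14.2, 18.4, 20.6 and 20.1 CPM in DG and 10.4, 4.97, 11.3 and 9.56 in HY. The diets did not overlap for MBD3, HDAC5 and H1FX, where 3.19% of all loci had all DG pools above. DNMT and TET genes of the list had no unadjusted p under 0.05.

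The 3 phosphofructokinase genes, which set the committed step of glycolysis, were the glycolysis genes with an unadjusted p under 0.05, of 17 tested. PFKL held 84.5, 71.5, 73.1 and 94.4 CPM in DG and 63.6, 53.8, 61.5 and 40.7 in HY. PFKP averaged 23.2 ± 0.642 CPM in DG and 17.2 ± 3.09 in HY, and PFKM 12.5 ± 2.16 and 9.75 ± 0.943. The 3 genes were each higher in all DG pools than in all HY pools, as were 3.19% of all loci. An unadjusted p under 0.05 with the higher mean in DG was reached by 6.88% of all loci. The list median was 0.16. The count of 3 was 1 without HY pool M2.

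In the breakdown of branched-chain amino acids and proline, 4 of 19 genes had an unadjusted p under 0.05 with the higher mean in DG and PPM1K had one with the lower mean. These p were reached by 6.88% and 2.99% of all loci. In the list as a whole, 13 of the 19 had the lower mean in DG, as had 52.3% of all loci, and the median was -0.12. PRODH, the first enzyme of proline breakdown, held 1.47, 3.28, 3.20 and 3.995 CPM in DG and 0.740, 1.29, 0.735 and 1.89 in HY. ALDH4A1, the next enzyme of that pathway, averaged 4.03 ± 1.54 and 2.16 ± 0.872 CPM. The other 2 were ACAD8 and BCAT2, which act on branched-chain amino acids, with log2 fold changes of 0.67 and 0.55. The count of 4 was 1 without DG pool F2, HY pool F1 or HY pool F2. In the list of stress and immediate early genes, HSPB1, a small heat shock protein that binds actin, held 150, 175, 169 and 172 CPM in DG and 120, 68.5, 96.7 and 110 in HY. Its log2 fold change was 0.75 (SE 0.158, edgeR FDR 0.209), and all 4 DG pools lay above all 8 HY and CN pools.

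Ribosomal and housekeeping lists held members of both directions. Of 63 mitochondrial ribosomal proteins, 7 had an unadjusted p under 0.05 with the higher mean in DG and 1 with the lower mean, around a median of -0.06, against 6.88% and 2.99% of all loci. MRPS12 held 2.81, 4.80, 2.17 and 2.63 CPM in DG and 0.740, 0.552, 1.23 and 1.53 in HY, and MRPL14 139 to 182 and 103 to 122 CPM. Without DG pool F2 the 7 became 3. Of 34 cytosolic ribosomal proteins, RPL13 and RPL28 had the higher mean (log2 fold changes 0.64 and 0.58) and RPL26 the lower (-0.35) at an unadjusted p under 0.05. Processed copies of ribosomal protein genes are common in mammalian genomes, so these counts are uncertain.

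The lists for clock genes, the glucocorticoid response and the interferon response had 0 members at an unadjusted p under 0.05. The interferon list had 17 of 21 genes with the lower mean in DG, as had 52.3% of all loci, and a median of -0.18. Without HY pool F1, 10 of the 21 had the higher mean in DG and the median was -0.03, and with limma voom 9 of the 21 and -0.08. The lists for the unfolded protein response, cell division, the proteasome, the amino acid shortage response, insulin and IGF, imprinted genes and adipokines had 1 to 3 members at an unadjusted p under 0.05. Such a p was reached by 6.88% of all loci with the higher mean in DG and by 2.99% with the lower mean. IGF1R averaged 4.87 ± 1.11 CPM in DG and 3.17 ± 0.723 in HY. NNAT, an imprinted gene of a membrane proteolipid, was lower in DG with 213, 137, 151 and 218 CPM against 150, 262, 406 and 549 in HY. HY pool F1 lay within the DG range of NNAT.

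**Figure D4:**
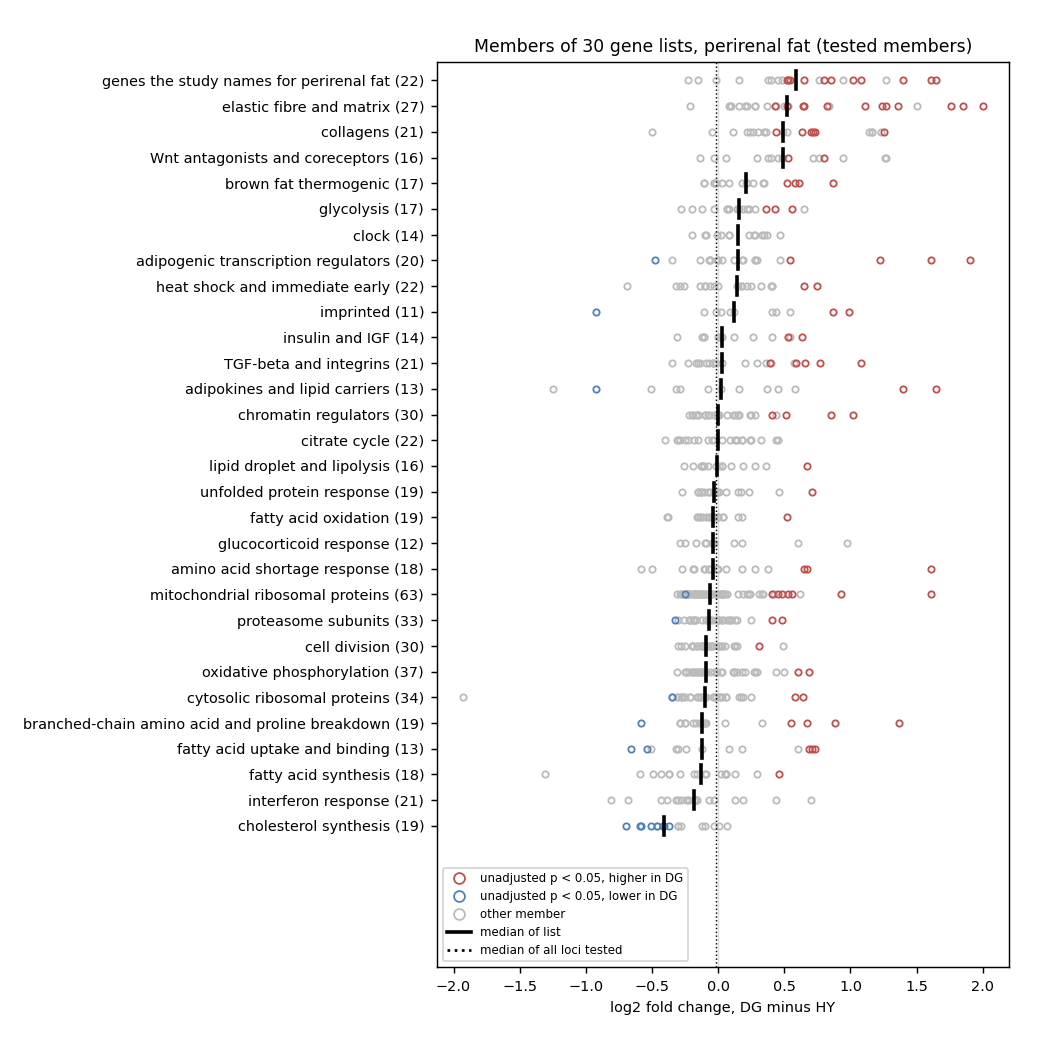
Log2 fold change, DG minus HY, of the tested members of 30 gene lists, with the number of members in parentheses, coloured where the unadjusted p was under 0.05. Thick bars mark list medians and the dotted line the median of all loci tested (-0.02). The matrix, collagen and Wnt lists lie to the right, near 0.5, and cholesterol synthesis to the left at -0.41.

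The study itself names 22 genes for fetal fat in connection with development, adipogenesis, lipid metabolism, Wnt signalling and chromatin. It names them for perirenal fat, except H1FX, HIST2H2BE and SATB1, which it gives for fetal adipose tissues without the depot. It chose the genes on libraries of this series, mostly in its comparison of DG with CN, so the list is no independent evidence of a direction. Between DG and HY, 19 of the 22 had the higher mean in DG, against 47.7% of all loci. Of these 19, 11 had an unadjusted p under 0.05, against 6.88% of all loci in that direction. Of the 22, 0 passed FDR ≤0.05, and the median log2 fold change was 0.59. By DESeq2, MBD3 and ITGB4 passed FDR ≤0.05 (0.00251 and 0.0190). PTGIS, the prostacyclin synthase, held 23.3, 31.8, 15.8 and 7.14 CPM in DG and 7.58, 4.33, 12.9 and 4.49 in HY. APOD, a lipocalin, held 42.3, 40.3, 8.56 and 4.17 CPM in DG and 10.4, 4.79, 9.71 and 5.43 in HY, so the 2 female DG pools carried its log2 fold change of 1.65 (SE 0.639, edgeR FDR 0.444). DLK1, an inhibitor of adipogenesis and a preadipocyte marker, held 61.1, 23.1, 38.4 and 17.9 CPM in DG and 16.3, 12.4, 96.8 and 16.8 in HY, a log2 fold change of -0.02. HY pool M1 alone held the highest DLK1, and without it the log2 fold change was 1.22. RBP4, the retinol carrier, averaged 18.0 ± 10.1 CPM in DG and 16.1 ± 16.5 in HY.

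Female and male fetuses were compared for their response to the diets. For the diet by sex difference, 0 of 18246 loci passed FDR ≤0.05 with the quasi-likelihood test (0%), with 1924 at an unadjusted p under 0.05, and the likelihood-ratio test called 185. Of the 20 genes above, 0 passed. With 2 pools per sex and diet, the precision of this comparison was low. Female and male pools of a diet also shared dams, so they were not independent. Without HY pool F1 the count was 27.

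The same diets were compared in subcutaneous fat and longissimus dorsi muscle of the same fetuses. Neither tissue had a locus at FDR ≤0.05 between DG and HY in its own edgeR test. At FDR ≤0.20 the same tests gave 1943 loci in subcutaneous fat and 0 in muscle, against 0 in perirenal fat. At an unadjusted p under 0.05 there were 3265 loci in subcutaneous fat and 397 in muscle. Of the 10 genes higher in perirenal DG pools, 9 had a subcutaneous log2 fold change at or below 0 to 2 decimals, the exception being DMPK at 0.45. CHID1 had 1.09 in perirenal fat, -1.24 in subcutaneous fat and 0.50 in muscle. LAMA5 had 1.10, -0.52 and 0.26 in the same order, and FLNA 0.91, -0.51 and -0.02. Of the 10 genes lower in perirenal DG pools, 6 were lower in subcutaneous DG pools as well, among them DAPK2 at -0.92 and AQP3 at -1.0.

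The difference between tissues was tested with all 36 libraries over 13283 genes joined by symbol. For perirenal minus subcutaneous fat, 831 genes passed FDR ≤0.05 (6.26%), and for perirenal fat minus muscle 0 passed (0%), with 300 at an unadjusted p under 0.05. Among the 9 tested of the 10 genes higher in DG, 6 passed for perirenal minus subcutaneous fat, with CHID1 at 2.45 and LAMA5 at 1.66 on the log2 scale. Since those genes were chosen on the perirenal pools that enter this fit, the 6 are a description. The 831 genes depended on single pools. The count was 0 without DG pool F2, DG pool M2, HY pool F1 or HY pool M2, 56 without HY pool M1, 1621 without DG pool F1 and 1869 without HY pool F2.

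**Figure D5:**
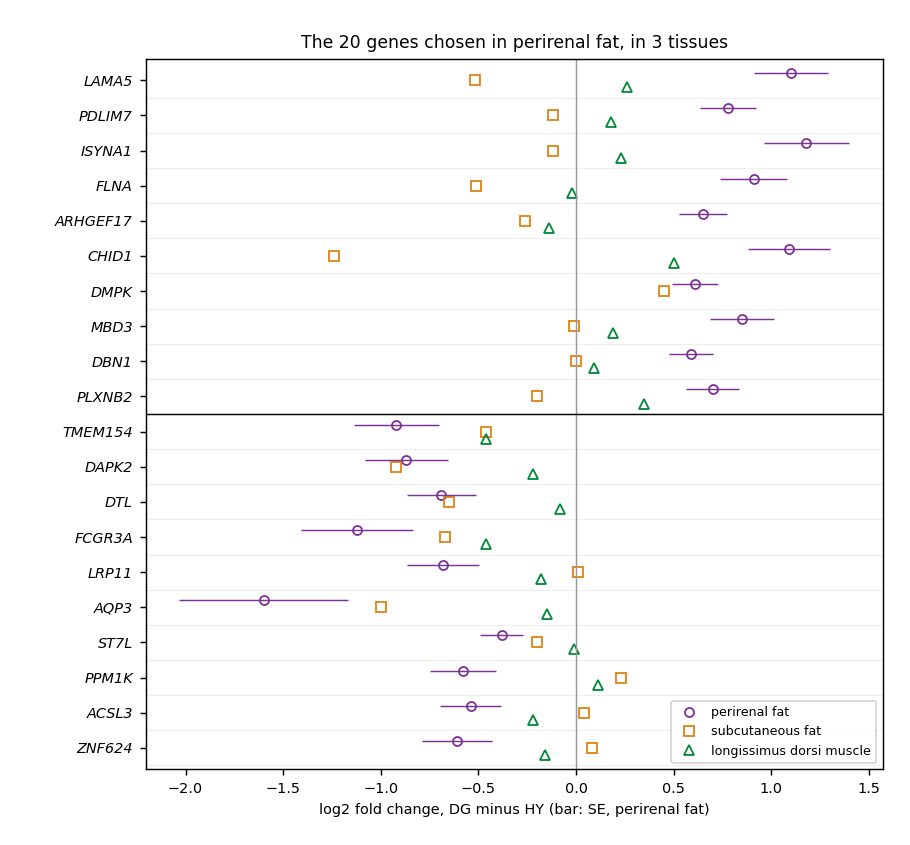
Log2 fold change, DG minus HY, of the 20 genes in perirenal fat (circles with SE), subcutaneous fat (squares) and muscle (triangles). For the upper 10 genes the perirenal values lie between 0.59 and 1.18 while subcutaneous values run from -1.24 to 0.45.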

How the data were processed

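RNA of perirenal fat was sequenced as single-end reads of mRNA-seq libraries, 1 per pool. According to the submitters' processing notes and the study's methods, reads were aligned to Oar_v3.1 with TopHat2 2.0.4 and loci were assembled with Cufflinks 2.1.1, separately in each tissue. The notes also name HTSeq, without a role. The authors deposited raw read counts per locus, 1 file per pool, with 35060 perirenal loci, of which 25658 have a name. How strand and reads mapping to several places were counted is not given in the sources used here.

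Loci were filtered with filterByExpr of edgeR 4.0.16 (minimum count 10, minimum total 15), leaving 18246. Counts of the 12 perirenal pools were scaled by TMM, and DG minus HY was tested with glmQLFit and glmQLFTest and Benjamini-Hochberg adjustment. The SE was derived from the fold change and its F statistic, and is approximate. CPM in the text are TMM-scaled, and marker sums use all loci before the filter. Genes named are the 10 smallest p per direction with 1 symbol and a mean of at least 50 counts (comma-joined names were left out), the 22 genes the study names, the 2 or 3 members of smallest p in each of 30 lists, and the leading marker genes. Further list members with an unadjusted p under 0.05, among them SQLE, LMF1, KLF4 and BCAT2, were named outside this rule, after their values were seen. The exact permutation test took log2 CPM or totals of 8 pools and is two-sided. For tissue differences, loci were summed by symbol and the pool was kept as a block. Alternatives were run with DESeq2 1.42.0, limma 3.58.1, other scalings and filters, and without each pool. The scripts were tested on simulated data. Replicates of 1 diet differed by more than counting noise (chi-square per degree of freedom 9.84 to 52.35 over 12 pairs). ZFY, the 1 Y-linked symbol looked for that the files name, lies on chromosome X there, so fetal sex was not checked. The part studied, its members and the lists were chosen with earlier results of these data known. A few genes of the lists are not reported here by name.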

Additional observations from a re-analysis of the deposited data

Results flagged for a closer look

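Of 262 groups of 4 pools examined, 15 had 1 pool whose gap to the nearest other was past Dixon's 95% critical value, which chance exceeds in about 1 of 20 groups. In HY pool M1 these were DLK1 (96.82 CPM, other HY pools 12.43 to 16.76), DKK3 (32.74, others 6.811 to 11.1), SFRP4 (8.0, others 0.3682 to 0.9442), EMILIN1 (1.878, others 0.555 to 0.7363) and LAMA5 (11.51, others 15.74 to 16.19). In HY pool F1 they were MSMO1 (200.7 CPM) and MX2 (13.32 CPM), in HY pool F2 DMPK (29.91 CPM), and in HY pool M2 CHID1 (7.671 CPM), MRPL2 (60.54 CPM) and the summed red blood cell markers (159.6 CPM). In DG, PFKP stood apart in pool M1 (24.14 CPM), ITGB4 in pool M2 (24.74 CPM, others 48.28 to 51.51), the summed adipocyte markers in pool F2 (17050 CPM, others 6592 to 8308), and the adrenal cortex list, nearly all STAR, in pool M2 (45.88 CPM, others 37.96 to 38.27).

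The DG minus HY difference differed between perirenal and subcutaneous fat at FDR ≤0.05 (edgeR, all 36 libraries) for 23 of 113 named genes, against 6.26% of all genes tested. Many of the 113 were chosen by their perirenal p, so the count is a description. On the log2 scale, perirenal minus subcutaneous, the values were 1.66 for LAMA5, 1.35 for ISYNA1, 1.41 for FLNA, 0.97 for ARHGEF17, 2.45 for CHID1 and 0.99 for PLXNB2. For matrix and adhesion genes they were 2.46 for FBLN2, 1.4 for LTBP4, 1.83 for COL18A1 and 1.9 for ITGB4. For genes of lipid and sugar metabolism they were 2.69 for DGAT1, 1.77 for SLC27A4, 1.39 for ACAA1, 1.61 for PFKL, 1.97 for ANGPTL4 and -0.94 for SUCLG2. The others were 3.51 for CEBPB, 2.69 for MT1A, 1.31 for IGFBP2, 0.95 for PLK1, 1.46 for PSMB10, 1.1 for MRPL2 and -2.05 for SATB1. Over all genes this count fell to 0 without any 1 of 4 pools, as given above.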

How the results depend on the processing

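At FDR ≤0.05 the count of 0 became 41 with the likelihood-ratio test and 101 with DESeq2, and ranged from 0 to 1 with 1 pool left out (1 without DG pool M2). At FDR ≤0.20 it became 256, 476 and, with limma voom, 94, and ranged from 0 to 308 (308 without DG pool F1, 14 without DG pool M2, 9 without HY pool M2). The diet by sex count was 185 with the likelihood-ratio test and 0 to 27 with 1 pool left out. The perirenal minus subcutaneous count was 946 without the pool block and 0 to 1869 with 1 pool left out, and the perirenal minus muscle count was 0 in each. RLE and upper-quartile scaling, no filter, sex as a covariate and the 8 pools alone left 0 loci at either FDR. The cause of these differences was not tested. The fit with the replicate block gave 0 loci at either FDR and 1732 at an unadjusted p under 0.05. By the study's description, same-numbered pools of DG and HY held fetuses of different dams. Their deviations from the diet means correlated at 0.2528, -0.0081, -0.0492 and 0.0193 for F1, F2, M1 and M2. The mean was -0.0181 for pools of different number. Whether same-numbered pools shared anything else was not tested.

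For the 113 named genes the alternative fits gave 1921 values in all, 1 per gene and fit. Of these values, 1876 kept sign and side of the threshold, 34 in 20 genes passed FDR ≤0.05, and 11 in 3 genes changed sign. These were RBP4 without DG pool F1 (-0.04), DG pool F2 (-0.14), HY pool F1 (-0.15) or HY pool F2 (-0.21), in a range up to 1.08, and SFRP4 without DG pool F1, in a range from -0.41 to 2.42. The third was DLK1 with voom (0.32), the replicate block (0.33) or sex as a covariate (0.17), and without DG pool F2 (0.12), DG pool M2 (0.19) or HY pool M1, in a range from -0.45 to 1.22. The share of the loci at an unadjusted p under 0.05 that were higher in DG lay between 65.26% and 76.79% over all fits. Genes near 1 CPM, such as RXRA, EMILIN1 and MRPS12, rest on few counts per pool.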

Other observations

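Some of the widest separations lay at loci without a gene symbol, chosen here by their p after the values were seen. XLOC_033380, an unnamed locus on the scaffold JH923750.1, held 30.2, 72.7, 48.1 and 66.7 CPM in DG pools F1, F2, M1 and M2, 10.4, 6.08, 13.6 and 24.0 in HY and 4.35 to 8.54 in CN (log2 fold change 2.02, SE 0.384, edgeR FDR 0.209). ENSOARG00000001059, on the scaffold JH921539.1, held 7.33, 14.4, 5.67 and 23.7 CPM in DG and 4.25, 1.66, 1.06 and 2.12 in HY (log2 fold change 2.49, SE 0.504, edgeR FDR 0.209). XLOC_012871 (chr18:68373349-68373750) held 7.94 to 19.5 CPM in DG and 3.70 to 7.67 in HY, with a log2 fold change of 1.44. The DG pools lay above all HY and CN pools at each of the 3 loci.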
